A study of Mus musculus with 6 samples.

Results

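The transcripts of 10 transcription factor genes that hold mouse embryonic stem cells in the pluripotent state were examined while Pcgf6, a subunit of the repressive polycomb complex PRC1.6, was knocked down. The genes were taken from a fixed list by the gene symbol of their probe set: the core factors Pou5f1, Sox2 and Nanog, the Krüppel-like factors Klf2, Klf4 and Klf5, and the naive-state factors Esrrb, Tfcp2l1, Tbx3 and Zfp42. All 10 were found, each with 1 probe set, among 19938 genes measured on a GeneChip Mouse Gene 1.0 ST array. The 6 arrays came from V6.5 mouse embryonic stem cells that carried a short hairpin RNA switched on by doxycycline (dox), a tetracycline-type drug. Induced cells carried the Pcgf6 hairpin shRNA1 or shRNA2 and received dox at 1 µg/ml, and uninduced cells of the same lines received none, with 1 array each. The line with a scrambled hairpin gave 1 array with dox at the same dose and 1 without. All cells were grown on inactivated mouse embryo fibroblasts, called feeder cells, with serum and medium conditioned with leukemia inhibitory factor (LIF). The sources used here do not say whether a line was a single clone or whether each array had a culture of its own. The p-values therefore rest on the spread among these arrays, part of which may be technical.

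Pluripotency rests on a small set of transcription factors that activate each other's genes and their own. OCT4, the product of Pou5f1, binds DNA together with SOX2, and NANOG stabilises the state. In mouse cells kept with LIF, a naive layer of factors is added, which is fed by LIF through STAT3, held back by the WNT pathway repressor TCF7L1 and by ERK signalling, and lost when cells move on to the primed state of the later epiblast. PRC1.6 is known mainly for keeping germ-cell genes silent in stem cells, and is brought to DNA by MGA/MAX at E-boxes and by E2F6 at E2F sites.

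Windows around the transcription start, from 250 bases before it to 50 bases after it, were available from RefSeq (GRCm38.p6) for 8 of the 10 genes, with 11 windows in all. Windows of Klf5 and Tbx3 were not used here. Each window holds the promoter and the first bases of the transcript. Shown are 3 windows with a match to the octamer core that OCT4 binds, those of Sox2, Nanog and Zfp42, and the windows of Klf2 and Klf4, a pair of related factors whose arrays differed in opposite ways with dox in the hairpin lines. Capitals mark every match, on either strand, to the octamer core ATGCAAA, the SOX-type ACAAAG, the KLF-type CCACCC, the GC box GGGCGG, the E-box CACGTG and the E2F-type TTCCCGC. The windows lie at chr3:34649745-34650044 (plus strand) for Sox2, chr6:122707315-122707614 (plus) for Nanog, chr8:43306960-43307259 (minus) for Zfp42, chr8:72318812-72319111 (plus) for Klf2 and chr4:55532426-55532725 (minus) for Klf4.
Sox2: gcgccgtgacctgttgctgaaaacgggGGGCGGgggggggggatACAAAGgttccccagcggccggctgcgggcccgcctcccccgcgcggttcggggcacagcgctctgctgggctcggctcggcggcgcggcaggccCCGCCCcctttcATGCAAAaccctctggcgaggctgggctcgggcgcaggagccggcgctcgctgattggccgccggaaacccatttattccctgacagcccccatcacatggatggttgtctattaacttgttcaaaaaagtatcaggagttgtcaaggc
Nanog: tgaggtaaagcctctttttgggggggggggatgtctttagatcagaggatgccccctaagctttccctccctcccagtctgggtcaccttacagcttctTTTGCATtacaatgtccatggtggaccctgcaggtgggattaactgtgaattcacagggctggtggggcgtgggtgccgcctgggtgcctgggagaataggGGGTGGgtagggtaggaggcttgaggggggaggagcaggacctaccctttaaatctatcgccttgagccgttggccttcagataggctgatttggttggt
Zfp42: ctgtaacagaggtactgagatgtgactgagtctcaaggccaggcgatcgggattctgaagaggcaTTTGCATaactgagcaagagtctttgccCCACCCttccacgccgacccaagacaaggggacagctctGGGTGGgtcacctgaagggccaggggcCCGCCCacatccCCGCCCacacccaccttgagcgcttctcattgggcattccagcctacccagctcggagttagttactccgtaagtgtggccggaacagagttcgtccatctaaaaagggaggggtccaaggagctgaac
Klf2: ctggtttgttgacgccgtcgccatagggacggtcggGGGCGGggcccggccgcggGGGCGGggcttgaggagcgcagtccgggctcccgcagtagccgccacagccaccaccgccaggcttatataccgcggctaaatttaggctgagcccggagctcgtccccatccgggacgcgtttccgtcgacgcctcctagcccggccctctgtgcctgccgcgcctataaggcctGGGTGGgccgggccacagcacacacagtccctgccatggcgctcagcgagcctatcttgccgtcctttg
Klf4: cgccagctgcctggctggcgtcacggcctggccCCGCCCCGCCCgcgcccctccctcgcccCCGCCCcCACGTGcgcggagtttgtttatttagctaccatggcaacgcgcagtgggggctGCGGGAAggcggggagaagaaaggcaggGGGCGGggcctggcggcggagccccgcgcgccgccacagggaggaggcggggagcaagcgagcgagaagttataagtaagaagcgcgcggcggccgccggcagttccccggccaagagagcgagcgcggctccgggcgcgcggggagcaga

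The octamer core was found in the windows of 3 of 8 genes, against 4.63% of 32851 windows over all genes. Here and below, a gene counts if any of its windows has a match, while the shares are of single windows. The measures are therefore not quite alike. It began 99 bases before the start of Sox2, 151 before that of Nanog in the window shown and 185 before that of Zfp42. The SOX-type spelling ACAAAG was found for Sox2 alone among the 8 genes (18.7% of all windows). Other spellings of a SOX site were not searched, so the remaining windows, that of Nanog included, may hold one. CACCC boxes were present for 5 genes (31.5% of all windows) and GC boxes for 5 (35.7%). Klf4 was the gene of the 8 with an E-box (7.15% of all windows) and also with an E2F-type motif (4.6% of all windows). The only overlap of matches in the windows shown is between neighbouring GC boxes of Klf4, which share a base. None of the letters searched occurred in the Tfcp2l1 window. These matches describe the windows and do not show binding.

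Values are log2 expression as deposited, so a difference of 1 is a doubling. The 6 arrays had medians between 7.02 and 7.08 over all probe sets and correlated at 0.991 to 0.996 with each other over all probe sets. Pcgf6 read 9.39 (shRNA1) and 9.27 (shRNA2) with dox, against 11.56 and 11.70 without, and 11.82 with and 11.80 without dox in the scrambled line. The 10 factors read between 9.37 and 12.64 on every array. The 20 feeder fibroblast markers, such as collagen genes, had means of 10.65 and 10.93 on the induced and 10.63 and 10.48 on the uninduced hairpin arrays, and of 10.34 with and 9.79 without dox in the scrambled line. The lowest value of a feeder marker was 6.01, for Lum in the scrambled line without dox, which is below the array medians. In such mixed samples, fewer stem cells and less RNA per stem cell cannot be told apart.

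No pluripotency factor passed the test for a dox effect in the Pcgf6 hairpin lines. By limma, 0 of the 10 had an adjusted p under 0.05 over all genes, against 0.201% of all genes. At an unadjusted p under 0.05 there were 2, Tbx3 and Klf4, against 8.75% of all genes. The members' median difference was 0.00 on the log2 scale and that of all genes was -0.01, with 5 members above 0 and 5 below. Both induced arrays were above both uninduced arrays for 2 members (17.9% of all genes) and below them for 4 (21.8%). The hairpin pairs differed in the same direction for 6 of 10 members, against 57.1% of all genes. Standard errors of the members ran from 0.08 to 0.13.

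Pou5f1, which encodes OCT4, read 12.62 and 12.55 in induced cells (shRNA1 and shRNA2), against 12.60 and 12.61 in uninduced cells, and 12.56 with and 12.64 without dox in the scrambled line. All 6 values lay within 0.09 of each other, the narrowest range of the 10 genes, and the groups overlapped. The difference in the hairpin lines was -0.02 (SE 0.08, 95% interval -0.22 to 0.18, limma adjusted p = 0.973). A retrocopy with its own probe set, Pou5f1-rs4, read 4.98 to 5.07 over the arrays, and near-identical copies of Pou5f1 and Nanog elsewhere in the genome could add to the signal of their probe sets.

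Sox2, the HMG-box partner of OCT4, read 11.87 and 11.89 in induced cells, against 11.95 and 12.00 in uninduced cells, and 12.08 with and 12.16 without dox in the scrambled line. It was lower with dox in all 3 lines (-0.08, -0.11 and -0.08), and the 4 hairpin arrays were all below the scrambled ones. The dox difference in the hairpin lines was -0.09 (SE 0.08, 95% interval -0.30 to 0.11, limma adjusted p = 0.795).

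Nanog, the homeobox gene whose product sustains self-renewal, read 12.23 and 12.06 in induced cells, against 12.12 and 12.14 in uninduced cells, and 12.38 with and 12.47 without dox in the scrambled line. With dox it was higher under shRNA1 and lower under shRNA2, and both scrambled arrays were the highest of the 6. The estimate for the hairpin lines was 0.01 (SE 0.10, 95% interval -0.22 to 0.24, limma adjusted p = 0.982), and -0.0061 with each array centred on its median. The widest bounds among the core factors were -0.30, for Sox2, and 0.24, for Nanog.

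**Figure D1:**
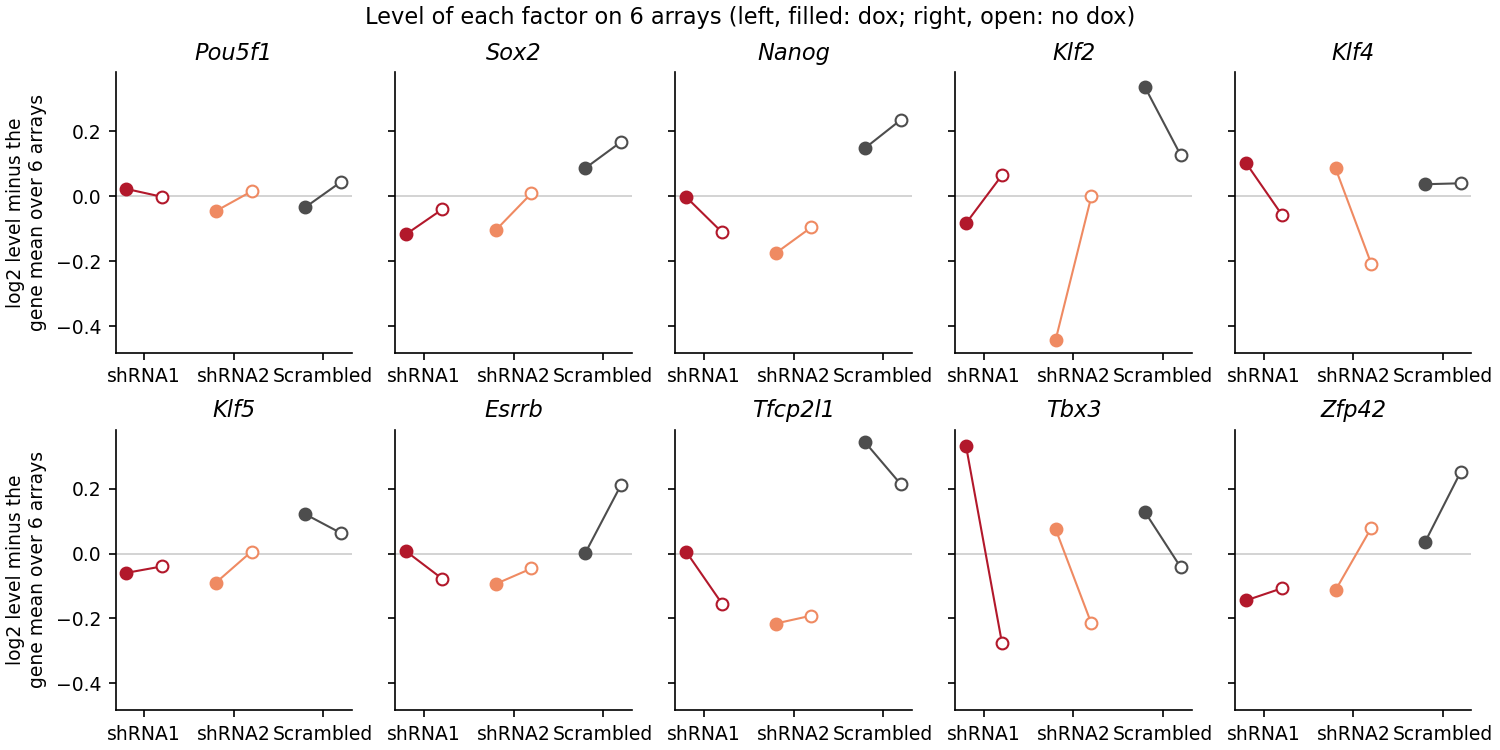
Levels of the 10 factors on the 6 arrays, as log2 level minus the gene's mean over the arrays, with the dox array (filled) left of the array without dox (open) in each line. Pou5f1 stays within 0.09 over all arrays, Klf2 spans 0.78, and the scrambled arrays stand above the hairpin arrays for Sox2, Nanog, Klf2, Klf5 and Tfcp2l1.

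The Krüppel-like factors, zinc finger proteins with overlapping roles in self-renewal, did not move together. Klf2, whose protein is destabilised by ERK signalling, read 10.66 and 10.30 in induced cells, against 10.81 and 10.74 in uninduced cells, and 11.08 with and 10.87 without dox in the scrambled line. The induced shRNA2 array was the lowest and the scrambled array with dox the highest, a span of 0.78 that was the widest of the 10 genes. Dox went with a lower value under both hairpins (-0.15 and -0.44) and a higher one in the scrambled pair (0.21). The difference in the hairpin lines was -0.29 (SE 0.13, 95% interval -0.61 to 0.02, limma adjusted p = 0.596). Without the induced shRNA2 array it measured -0.11, and without the induced shRNA1 array -0.48, so the size depends on which induced array is left out. With the feeder marker mean as a covariate the Klf2 difference measured -0.08 and did not pass. In that fit the marker slope rests on the 4 hairpin arrays, because each scrambled group is a single array. Feeder markers differed by 0.02, 0.45 and 0.55 in the shRNA1, shRNA2 and scrambled pairs, where Klf2 differed by -0.15, -0.44 and 0.21. Whether feeder content plays a part was not tested.

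Klf4, a STAT3 target and one of the classical reprogramming factors, read 10.61 and 10.60 in induced cells, against 10.45 and 10.30 in uninduced cells, and 10.55 on both scrambled arrays. Both induced arrays were above both uninduced hairpin arrays, while the scrambled pair differed by 0.00. The difference was 0.23 (SE 0.09, 95% interval 0.00 to 0.45), with a limma p of 0.0469 before and 0.565 after adjustment over all genes. Without the uninduced shRNA2 array it measured 0.15. Klf5, which acts in the inner cell mass and in stem cell self-renewal, read 11.44 and 11.41 in induced cells, against 11.46 and 11.51 in uninduced cells, and 11.62 with and 11.56 without dox in the scrambled line. Its hairpin arrays lay between 11.41 and 11.51, all below the scrambled arrays, and the dox difference in the hairpin lines was -0.06 (SE 0.08, limma adjusted p = 0.889).

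Of the naive-state factors, Tbx3 was higher with dox in every line, without passing the test. Tbx3, a T-box gene that acts downstream of LIF in stem cells, read 9.98 and 9.72 in induced cells, against 9.37 and 9.43 in uninduced cells, and 9.78 with and 9.61 without dox in the scrambled line. Each dox array was above all 3 arrays without dox, which held for 1 of the 10 factors and for 4.08% of all genes in that direction. The difference was 0.60 under shRNA1, 0.29 under shRNA2 and 0.17 in the scrambled pair. In the shRNA1 pair it passed 1.5-fold, as 1 of the 10 factors and 0.868% of all genes did. In the shRNA2 and scrambled pairs 0 of the 10 passed 1.5-fold, against 2.61% and 1.7% of all genes. Over both hairpins the difference was 0.45 (SE 0.11, 95% interval 0.18 to 0.71), or 1.36-fold, with a limma p of 0.00561 before and 0.373 after adjustment, so it did not pass. Feeder markers differed by 0.02, 0.45 and 0.55 in the shRNA1, shRNA2 and scrambled pairs. With the feeder marker mean as a covariate the Tbx3 estimate was 0.63 (limma adjusted p = 0.954), with a marker slope that rests on the 4 hairpin arrays. The cause of the Tbx3 difference was not tested.

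Esrrb, an orphan nuclear receptor gene repressed by TCF7L1, read 11.87 and 11.77 in induced cells, against 11.79 and 11.82 in uninduced cells, and 11.87 with and 12.08 without dox in the scrambled line. The scrambled array without dox was the highest and the other 5 lay between 11.77 and 11.87. Its dox difference in the hairpin lines was 0.02 (SE 0.09, 95% interval -0.19 to 0.23, limma adjusted p = 0.975), and -0.0022 with median centring. Tfcp2l1, a CP2-family gene downstream of STAT3, read 11.15 and 10.92 in induced cells, against 10.99 and 10.95 in uninduced cells, and 11.48 with and 11.35 without dox in the scrambled line. Its dox difference was 0.07 (SE 0.10, limma adjusted p = 0.900), with 0.16 under shRNA1 and -0.02 under shRNA2. Zfp42, which encodes REX1 and is widely used as a reporter of the naive state, read 11.19 and 11.22 in induced cells, against 11.22 and 11.41 in uninduced cells, and 11.36 with and 11.58 without dox in the scrambled line. It was lower with dox in all 3 lines (-0.04, -0.19 and -0.22), and the difference in the hairpin lines was -0.11 (SE 0.10, limma adjusted p = 0.787). It measured -0.21 without the uninduced shRNA1 array and -0.02 without the uninduced shRNA2 array.

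**Figure D2:**
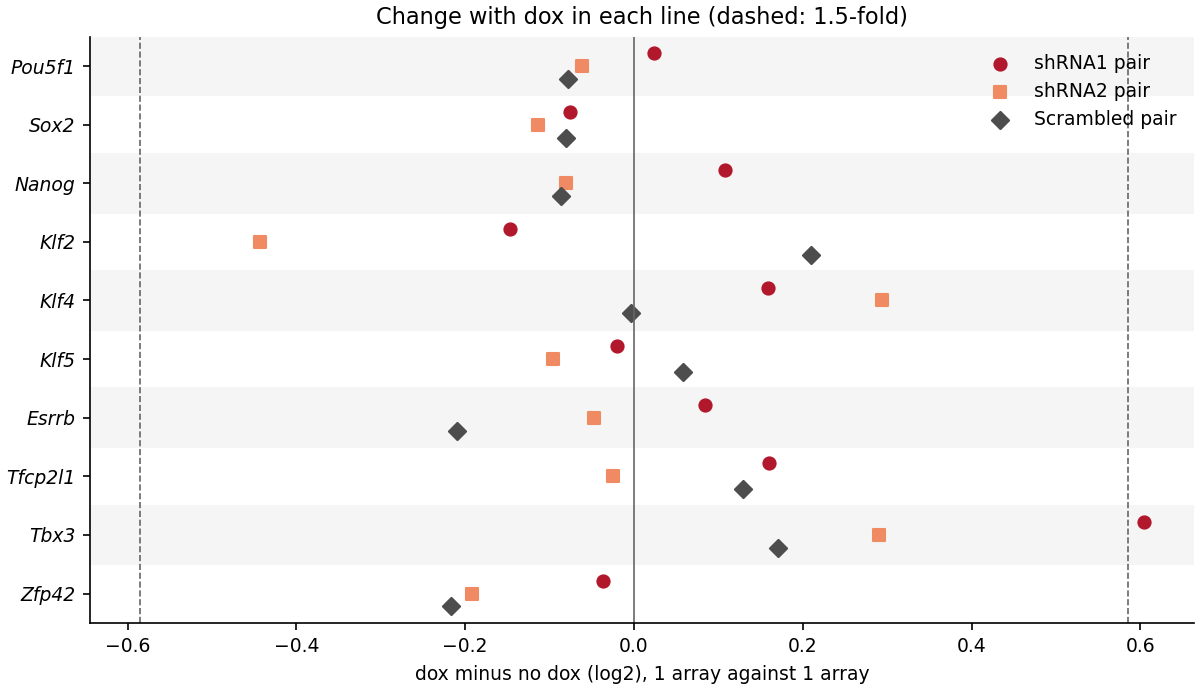
Dox minus no dox on the log2 scale for each factor in the shRNA1, shRNA2 and scrambled pairs, 1 array against 1 array, with dashed lines at 1.5-fold. Tbx3 under shRNA1 (0.60) is the point past a dashed line, and Klf2 lies below 0 under both hairpins and above 0 in the scrambled pair.

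A shift with dox that was shared by all lines was tested with the line as a block, since dox alone could act on the cells. The 10 members had a median of -0.03, against -0.01 for all genes, and by limma 0 of 10 passed, as did 0% of all genes. At an unadjusted p under 0.05 there was 1 member, Tbx3, against 11.6% of all genes. Tbx3 averaged 9.83 ± 0.13 with dox and 9.47 ± 0.12 without (SD, n = 3 each), a paired difference of 0.36 (SE 0.10, limma adjusted p = 0.345). Without either shRNA1 array it measured 0.23. Zfp42 measured -0.15 (SE 0.07, adjusted p = 0.484) and Sox2 -0.09 (SE 0.07, adjusted p = 0.649). A lower value in all 3 pairs, as for Sox2 and Zfp42, was seen for 18.5% of all genes.

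The response of the Pcgf6 hairpin lines was then set against that of the scrambled line. No member passed: the limma adjusted p was 0.999 for each of the 10, 0 had an unadjusted p under 0.05, and the shares over all genes were 0.0702% adjusted and 4.55% unadjusted. Klf2 had the widest difference, at -0.50 (SE 0.23, 95% interval -1.05 to 0.04). Tbx3 followed with 0.28 (SE 0.19), Klf4 with 0.23 (SE 0.16) and Esrrb with 0.23 (SE 0.15). The scrambled pair has 1 array on each side, and its spread was assumed to be like that of the hairpin arrays. The median of the members was 0.08, and that of all genes 0.00. For Klf2, Klf4 and Klf5 both hairpin pairs differed one way and the scrambled pair the other, 3 of 10 members against 23.4% of all genes.

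The levels of the 10 factors were also compared between the lines, over both dox states. Averaged over dox, all 10 estimates for the Pcgf6 hairpin lines against the scrambled line were below 0, where 49.8% of all genes were. For Sox2, Nanog, Klf2, Klf5 and Tfcp2l1 all 4 hairpin arrays were below both scrambled arrays, 5 of 10 against 8.38% of all genes. For none of the 10 were they all above. For 8 of the 10 the highest of the 6 arrays was a scrambled array and the lowest an induced hairpin array, against 16.8% of all genes. The median over the 10 was -0.17 on the log2 scale, against 0.00 for all genes.

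Tfcp2l1 averaged 11.00 ± 0.10 in the hairpin lines (SD, n = 4) and 11.42 ± 0.09 in the scrambled line (SD, n = 2), a difference of -0.42 (SE 0.08, 95% interval -0.61 to -0.22). Nanog averaged 12.14 ± 0.07 and 12.43 ± 0.06 in the same lines, a difference of -0.29 (SE 0.08). Klf2 differed by -0.35 (SE 0.14), and by -0.09 without the scrambled array with dox and -0.60 without the scrambled array without dox. Zfp42 differed by -0.21 (SE 0.08) and Sox2 by -0.19 (SE 0.07). These 5 genes had an unadjusted limma p under 0.05, against 11.3% of all genes. After adjustment 0 of the 10 passed, as did 0% of all genes. The lowest adjusted p of a member was 0.150, for Tfcp2l1, followed by 0.222 for Nanog. Pou5f1 (-0.01, SE 0.07), Klf4 (-0.06, SE 0.09) and Tbx3 (-0.06, SE 0.10) had the estimates nearest to 0. Arrays of a line share that line, so the 4 and 2 arrays are not as many independent replicates, and the scrambled side is a single line.

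**Figure D3:**
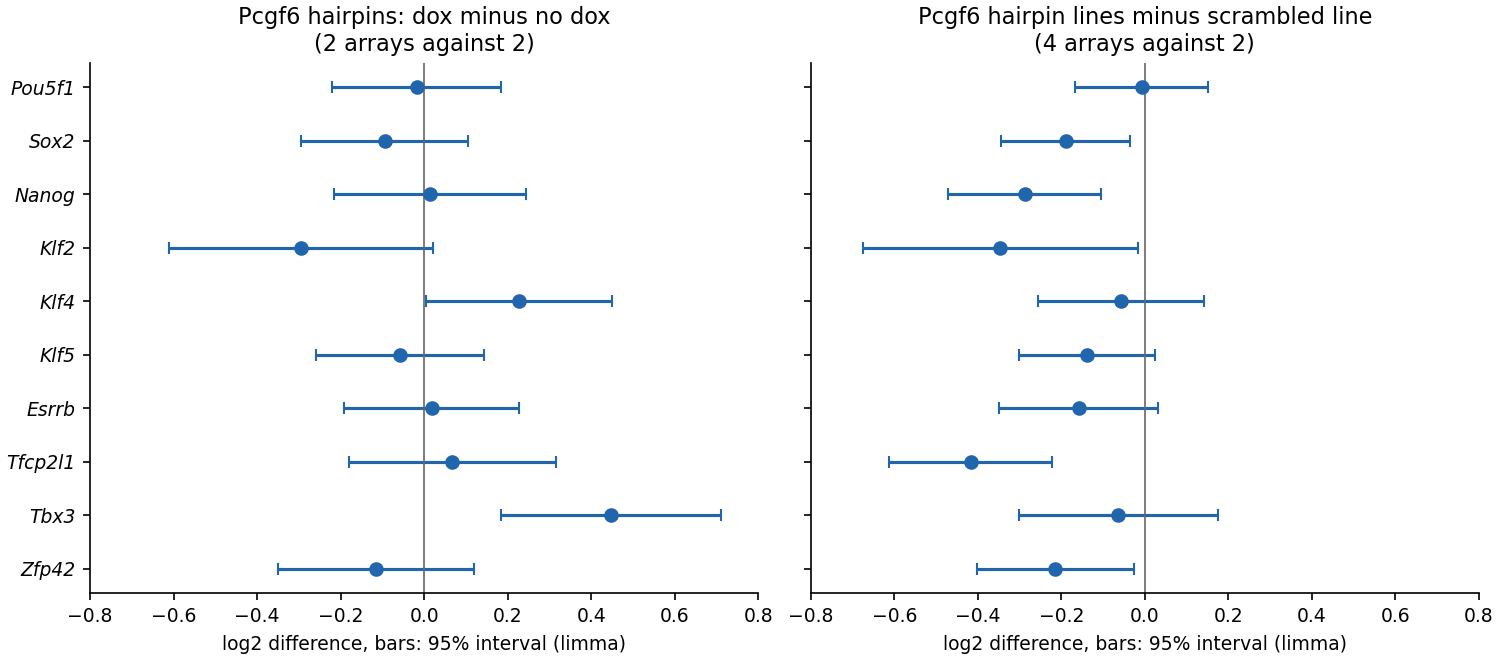
Log2 difference with its 95% limma interval for each factor, for dox minus no dox in the Pcgf6 hairpin lines (left) and for the hairpin lines minus the scrambled line over both dox states (right). On the left Tbx3 (0.45) and Klf4 (0.23) have intervals above 0, and on the right all 10 points lie below 0, with Tfcp2l1 at -0.42.

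Feeder markers also differed between the lines, in the opposite direction. All 20 were higher in the hairpin lines, with a mean of 10.67 against 10.07 in the scrambled line, while the 10 factors averaged 11.29 and 11.48 in the same lines. The ranges of the factor mean did not overlap, at 11.24 to 11.36 on the 4 hairpin arrays and 11.48 to 11.49 on the scrambled arrays. With the feeder marker mean as a covariate, Nanog measured -0.03 and Zfp42 -0.07, Tfcp2l1 measured -0.26, Klf2 -0.40 and Sox2 -0.19. Under that covariate Pou5f1, Klf4, Esrrb and Tbx3 were above 0, at 0.12, 0.05, 0.13 and 0.44. Within the scrambled line, feeder markers were higher by 0.55 with dox, and the mean of the 10 factors differed by -0.01. Under shRNA2 the markers were higher by 0.45 and the factors differed by -0.05, and under shRNA1 these values were 0.02 and 0.09. All 4 hairpin arrays had higher marker means than both scrambled arrays, so line and feeder content cannot be told apart.

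**Figure D4:**
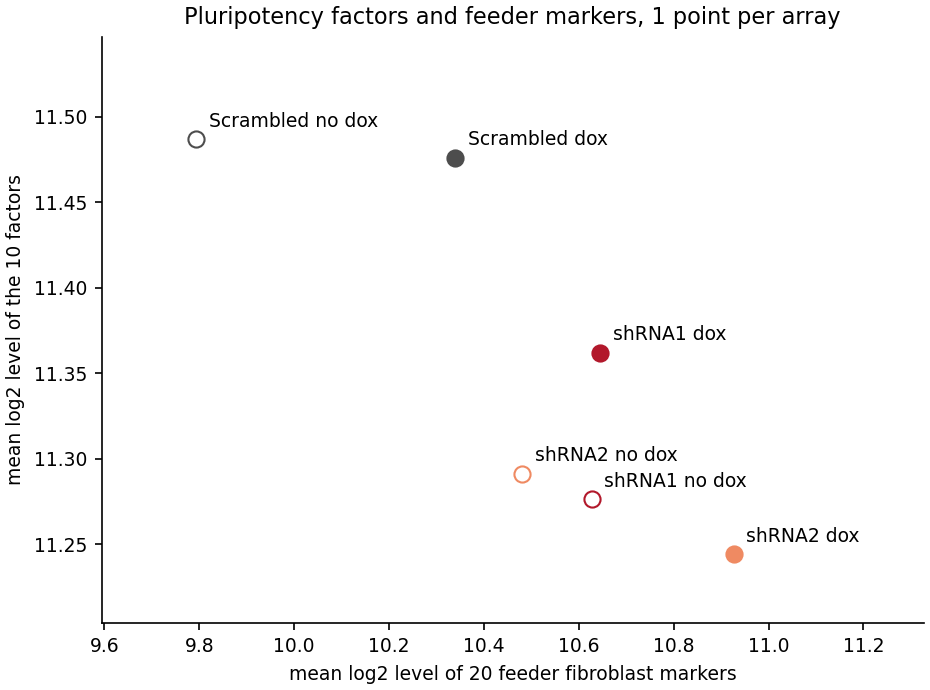
Mean log2 level of the 10 factors against the mean log2 level of 20 feeder fibroblast markers, with 1 point per array (filled: dox, open: no dox). The 2 scrambled arrays lie highest on the factor axis (11.48 and 11.49) and lowest on the marker axis, where they differ by 0.55.

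Klf2, Tfcp2l1 and Tbx3 spanned at least 0.5 on the log2 scale over the arrays, and the genes with the nearest profiles were looked up for them. Likeness was the mean absolute difference over the 6 arrays between values centred on each gene's mean. Nearest to Klf2 were Hif3a (0.05), Stpg1 (0.05) and Cyp2d10 (0.06). Nearest to Tfcp2l1 were Cdh22 (0.04), Prag1 (0.05) and Lad1 (0.05). Nearest to Tbx3 were Aoc1 (0.03), Slc18a1 (0.05) and Tgm1 (0.05). Aoc1 read 6.22 and 5.88 in induced cells, against 5.47 and 5.60 in uninduced cells. Its values, like those of Slc18a1, Stpg1 and Cyp2d10, were below the median of all probe sets on every array, where signal is weak. With 6 arrays and 19938 genes, near profiles are easily found.

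The wider network was followed through lists of its inputs, partners and outputs, and 0 of their members passed any of the 4 tests. Of 14 measured partner factors, 5 were above 0 with dox in the hairpin lines and 3 had an unadjusted p under 0.05, against 8.75% of all genes. Tcf7l1, the WNT-pathway repressor of Nanog and Esrrb, read 10.88 and 10.62 in induced cells, against 11.25 and 11.15 in uninduced cells, and 11.23 with and 11.24 without dox in the scrambled line. Both induced arrays were below the other 4, and the difference was -0.45 (SE 0.11, limma adjusted p = 0.380). Prdm14, which represses FGF signalling genes in naive cells, measured 0.31 (SE 0.09, adjusted p = 0.460) in the hairpin lines and -0.25 in the scrambled pair.

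Of 10 LIF and STAT3 pathway genes, 7 were above 0 with the hairpins and the median was 0.05. The kinase genes Jak1 (0.33, SE 0.14) and Jak2 (0.33, SE 0.12) had the widest differences and measured 0.35 and 0.47 in the scrambled pair. Of 11 FGF and ERK pathway genes, 6 were above 0, and 0 had an unadjusted p under 0.05. The immediate early gene Egr1 measured 0.16 (SE 0.20) and the receptor gene Fgfr2 -0.16 (SE 0.09). Of 12 WNT and BMP genes, 11 were above 0 with a median of 0.14, and the scrambled pair had a median of 0.20. The BMP target genes Id2 and Id1 measured 0.31 (SE 0.09) and 0.27 (SE 0.15).

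Known target genes of OCT4 and SOX2 sat slightly below 0, with 1 of 10 above it and a median of -0.11. In the scrambled pair the median was -0.16. Upp1, which encodes uridine phosphorylase, read 11.30 and 11.21 in induced cells, against 11.78 and 11.76 in uninduced cells, and 11.54 with and 11.76 without dox in the scrambled line. Its difference in the hairpin lines was -0.52 (SE 0.09, limma adjusted p = 0.142), while Pou5f1 and Sox2 measured -0.02 and -0.09. Fbxo15, an F-box gene used as a stem cell reporter, measured -0.35 (SE 0.13) with the hairpins and -0.40 in the scrambled pair.

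Genes of the primed state, the counterpart of the naive factors, had a median of -0.32 with dox in the hairpin lines, 2 of 12 being above 0. An unadjusted p under 0.05 was reached by 7 of them, against 8.75% of all genes, and 0 passed after adjustment, with a lowest adjusted p of 0.0660. The medians were -0.32 and -0.39 in the shRNA1 and shRNA2 pairs and 0.06 in the scrambled pair. Sall2, a zinc finger gene, had the widest difference (-0.81, SE 0.10) and measured -0.53 in the scrambled pair. Zic2, a neural and epiblast zinc finger gene, measured -0.77 (SE 0.10, adjusted p = 0.0684) in the hairpin lines and 0.12 in the scrambled pair. Against these, the 10 pluripotency factors had medians of 0.05, -0.07 and -0.04 in the 3 pairs.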

How the data were processed

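Log2 expression values were used as the authors deposited them. Per the submitters' processing notes, RMA in Affymetrix Power Tools produced them. Because RMA brings the probe intensities of all arrays to 1 common distribution before probe sets are summarised, shifts common to most genes are lost. Versions, options and a genome build are not given in the sources used here. Every value column matched a sample. Of 35556 probe sets, 21789 had 1 gene symbol, 1621 several and 12146 none. The brightest probe set per gene left 19938 genes, all tested with limma 3.58.1 (R 4.3.3), two-sided, with Benjamini-Hochberg adjustment over all genes and a threshold of 0.05. A fit with 1 mean for each of 4 groups gave the dox effect in the hairpin lines and its difference from the scrambled pair. A fit with line as a block gave the dox effect over all lines. A fit on line type and dox compared the lines. The 95% intervals use limma's moderated errors, unadjusted for the number of genes. Precision is limited by how few arrays there are.

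The hairpin number pairs induced and uninduced arrays, which come from the same line, and across genes the deviations from the group mean correlated at 0.181 between the 2 arrays of a hairpin. The members, gene lists, tests and the feeder covariate were chosen with earlier results of these data known. Genes named from a list are the 2 with the widest dox effect in the hairpin lines, since none passed. Predicted, RNA-only and receptor-family models were skipped among like profiles. Promoter windows were searched on both strands. The fits were tested on simulated data.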

Additional observations from a re-analysis of the deposited data

Results flagged for a closer look

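Klf2, Klf4 and Klf5 differed one way with dox in both hairpin pairs and the other way in the scrambled pair, as did 23.4% of all genes. The difference between the hairpin and scrambled responses was -0.50 (SE 0.23) for Klf2, 0.23 (SE 0.16) for Klf4 and -0.12 (SE 0.14) for Klf5, each with a limma adjusted p of 0.999. The hairpin pairs measured -0.15 and -0.44 for Klf2, against 0.21 in the scrambled pair. For Klf4 they measured 0.16 and 0.29, and the scrambled pair, at 0.00, lay just below 0. For Klf5 they measured -0.02 and -0.10, against 0.06 in the scrambled pair.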

How the results depend on the processing

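In every comparison 0 of the 10 factors passed under any alternative that gave a value, including quantile normalization, median centring, leaving out dim genes, an intensity trend and each array left out. The feeder covariate was run for the dox effect in the hairpin lines and for the difference between the lines, and 0 of 10 passed in both. The lowest adjusted p over all of them was 0.0918, for Tfcp2l1 between the lines without the induced shRNA1 array. With the replicate block on the line, 0 of 10 passed for the dox effect in the hairpin lines and for its difference from scrambled, and without the block 0 of 10 passed over all lines, so pairing changed no call. The difference from scrambled could not be fitted without either scrambled array. With median centring, the dox effect in the hairpin lines was -0.0061 for Nanog and -0.0022 for Esrrb, and with the feeder covariate 0.0319 for Pou5f1. Between the lines the feeder covariate gave 0.117 for Pou5f1, 0.0522 for Klf4, 0.134 for Esrrb and 0.438 for Tbx3. With arrays left out in turn, the dox effect in the hairpin lines ranged from -0.0526 to 0.0159 for Pou5f1, from -0.0725 to 0.101 for Nanog, from -0.0321 to 0.0681 for Esrrb and from -0.0431 to 0.178 for Tfcp2l1. The difference from scrambled ranged from -0.0389 to 0.011 for Sox2 and from -0.173 to 0.0485 for Tfcp2l1. Over all lines the dox effect ranged from -0.0835 to 0.014 for Nanog, from -0.295 to 0.0312 for Klf2, from -0.0581 to 0.0192 for Klf5 and from -0.129 to 0.018 for Esrrb. Between the lines the estimate ranged from -0.0374 to 0.0226 for Pou5f1, from -0.172 to 0.0572 for Klf4 and from -0.202 to 0.075 for Tbx3. The cause of these turns was not tested. With 2 arrays per hairpin group and 1 per scrambled group, differences as small as most of these could not be detected after adjustment over all genes.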

Other observations

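Klf4 and Tbx3 were highest on the induced shRNA1 array and lowest on an uninduced hairpin array, that of shRNA2 for Klf4 and that of shRNA1 for Tbx3. In the uninduced arrays alone, the hairpin lines minus the scrambled line measured -0.39 for Tfcp2l1 and -0.34 for Nanog, with limma adjusted p of 0.492 and 0.518, and -0.09 for Klf2.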
